A study of Mus musculus with 8 samples.

Results

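Il6, Osmr, Socs3, Serpina3n, Saa3, Lcn2, Hp, Mt1, Mt2 and Steap4 are genes of the acute-phase and inflammatory response. They are 10 of the 35458 annotated genes for which counts were summed, and all 10 passed the filter on low counts that left 15207 genes for testing. The genes were selected on results from these same tumors, namely their counts and fold changes between SR59230A and vehicle. Their values in that comparison are therefore given as a description, with standard errors and without a test.

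Total RNA was sequenced from 8 N2A tumors. N2A (Neuro-2a) is a murine neuroblastoma cell line, and each tumor grew under the skin of an A/J mouse, a host of the same strain background, after injection of 1000000 cells. Female mice were bought at 4 weeks of age. Once a tumor could be felt, 4 mice received vehicle (physiological solution, called mock in the deposited labels; tumors 0, 1, 2 and 3) and 4 received SR59230A (tumors 1, 2, 3 and 4), which blocks the β3-adrenergic receptor, by intraperitoneal injection of 10 mg/kg 2 times a day, and all were killed after 8 days of treatment. No group carried an engineered allele, and every tumor came from the 1 cell line. A tumor in this model holds host cells beside the injected cells. In such bulk RNA, fewer cells of a type and less RNA per cell cannot be told apart.

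Estimated counts summed to 28614914 to 44045575 per vehicle tumor and 23484190 to 43675495 per SR59230A tumor, and SR59230A tumor 3 was the shallowest of the 8. The mitochondrially encoded share was 1.3% to 6.11% in vehicle and 1.54% to 7.47% in SR59230A tumors, highest in SR59230A tumor 3. All 10 neuroblast markers (Phox2a, Hand2 and others) were measured above the filter, with summed levels of 768 to 1080 CPM (reads scaled to library size) in vehicle and 594 to 801 CPM in SR59230A tumors. None of the 10 had a log2 fold change above 0, the median was -0.41, and 4 had an unadjusted p under 0.05, with 0 called by either tool. SR59230A tumors 1 and 2 stood apart by skeletal muscle markers, which summed to 2250 and 194 CPM there, against 28.6 and 10.9 CPM in SR59230A tumors 3 and 4 and 7.43 to 9.35 CPM in vehicle tumors. All 4 SR59230A sums thus lay above the vehicle range. Of 10 muscle markers 6 were tested by edgeR, and all 6 had a log2 fold change above 0 and an unadjusted p under 0.05, with 0 called. Markers with few reads in vehicle tumors, such as Acta1, can pass the filter through their SR59230A reads. DESeq2 called 4 of the 10, where it called 36 of 18531 genes (0.194%), and gave no adjusted p for Acta1 and Mylpf. SR59230A tumors 3 and 4 stood apart by adipocyte markers, at 250 and 102 CPM against 24.9 to 65.1 CPM in vehicle tumors. Fold changes are therefore also given without SR59230A tumors 1 and 2, with any 1 tumor left out, and for subsets of 2 tumors per group. SR59230A tumors 3 and 4 were left out together only in a subset that also lacked vehicle tumors 0 and 3.

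The acute-phase response is the rapid change in secreted proteins that follows injury or inflammation. Interleukin-6 and its relative oncostatin M bind receptors that share the gp130 subunit, and JAK kinases at these receptors activate STAT3, which turns on acute-phase genes and also SOCS3, the inhibitor of the same receptors. Interleukin-1 acting through NF-κB, glucocorticoids, C/EBP factors and, for metallothioneins, zinc through MTF1 act on many of the same genes. The liver is the main source of acute-phase proteins in blood, while tumors, fat, macrophages and reactive glia also make some of them.

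In the 4 SR59230A tumors the mean level of each of the 10 genes was above the vehicle mean, and Serpina3n, Mt2 and Mt1 differed most, at 3.64-, 3.6- and 3.17-fold. Lcn2 and Steap4 followed at 2.55- and 2.17-fold, Saa3 and Hp at 1.7- and 1.38-fold, and the signaling genes Osmr, Il6 and Socs3 at 1.32-, 1.17- and 1.02-fold. Serpina3n was the 1 gene of the 10 whose SR59230A tumors all lay above all vehicle tumors, where 1.32% of the 15207 tested genes had that order. The level was highest in SR59230A tumor 3 for 9 of the 10 genes, and for 7 of them SR59230A tumors 3 and 4 were the highest pair. SR59230A tumor 2 lay within or below the vehicle range for 9 of the 10 genes, all but Serpina3n.

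**Figure D1:**
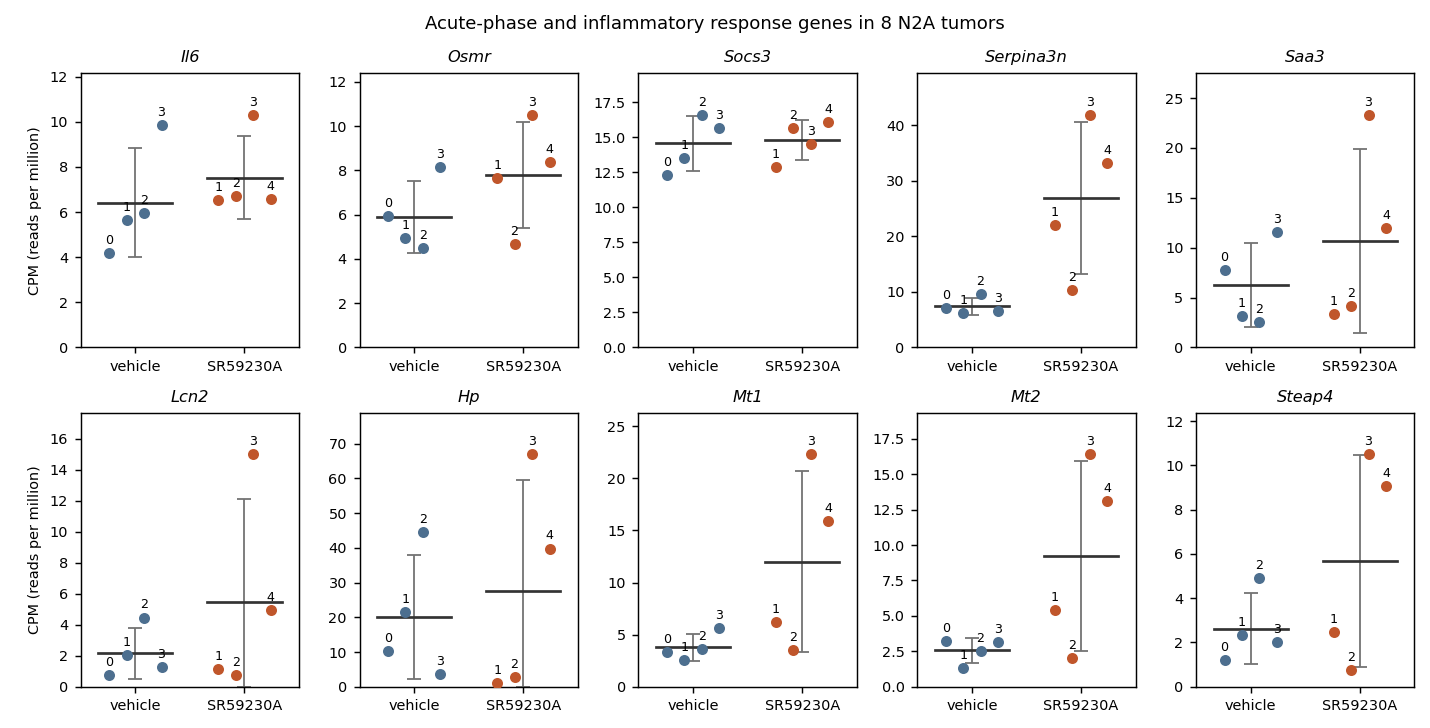
Level of each gene (vertical axes, CPM, each from 0) in the 4 vehicle and 4 SR59230A tumors; points are tumors with their numbers, horizontal lines are group means and bars are 1 SD, drawn no lower than 0. Serpina3n alone has every SR59230A tumor above every vehicle tumor, and SR59230A tumors 3 and 4 lie at the top for Serpina3n, Mt1, Mt2, Lcn2, Steap4, Saa3 and Osmr.

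A gene was called differentially expressed when its log2 fold change was 0.5 or more in either direction and its adjusted p was below 0.05. By edgeR's quasi-likelihood test with Benjamini-Hochberg adjustment, 0 of the 10 genes passed, as did 0% of the 15207 genes tested, of which 706 had an unadjusted p under 0.05. DESeq2 called 1 of the 10, Serpina3n, where it called 36 of 18531 genes (0.194%), 21 higher and 15 lower. Since the 10 genes were chosen with this comparison known, nothing is read from their counts. The median log2 fold change was 0.93 over the 10 genes and -0.002 over all tested genes, and 10 of 10 against 49.6% of tested genes had a value above 0. The labels list 4 separately numbered tumors per group, whereas the study describes its sequencing as done in duplicate. Whether all 8 libraries came from separate animals cannot be told from the sources used here, so standard errors and test results measure the spread between these libraries, which may be partly technical.

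The promoter stretches shown here are those of the genes with the largest differences, Serpina3n, Mt1 and Mt2, and of Lcn2 and Steap4. Each is the 250 bases before the RefSeq transcription start in the GRCm38.p6 reference assembly, which is not the A/J genome, read 5′ to 3′ on the gene's own strand. The gene spans given with the values are from GENCODE and can start earlier: the Lcn2 stretch lies inside the GENCODE span of Lcn2, and those of Mt1 and Steap4 overlap the first bases of their genes. Capitals mark matches on either strand to the search patterns TTCNNNGAA (STAT), TTGCNNAA (C/EBP), GGNNTTTCC (NF-κB), ACANNNTGT (glucocorticoid receptor) and TGCACNC or TGCGCNC (cores of metal response elements). The stretches are chr12:104406458-104406707 (plus strand) for Serpina3n, chr8:94178839-94179088 (plus) for Mt1, chr8:94172368-94172617 (plus) for Mt2, chr2:32387740-32387989 (minus) for Lcn2 and chr5:7960222-7960471 (plus) for Steap4.
Serpina3n: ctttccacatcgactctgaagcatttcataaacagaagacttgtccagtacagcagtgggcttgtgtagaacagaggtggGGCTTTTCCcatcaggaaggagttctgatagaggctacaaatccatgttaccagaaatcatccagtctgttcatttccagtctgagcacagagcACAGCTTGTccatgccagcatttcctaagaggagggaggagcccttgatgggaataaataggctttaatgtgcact
Mt1: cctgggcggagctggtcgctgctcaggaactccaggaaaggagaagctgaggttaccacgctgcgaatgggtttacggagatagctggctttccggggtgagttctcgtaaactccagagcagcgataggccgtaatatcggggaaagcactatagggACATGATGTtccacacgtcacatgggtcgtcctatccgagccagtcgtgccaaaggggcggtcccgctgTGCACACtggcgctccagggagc
Mt2: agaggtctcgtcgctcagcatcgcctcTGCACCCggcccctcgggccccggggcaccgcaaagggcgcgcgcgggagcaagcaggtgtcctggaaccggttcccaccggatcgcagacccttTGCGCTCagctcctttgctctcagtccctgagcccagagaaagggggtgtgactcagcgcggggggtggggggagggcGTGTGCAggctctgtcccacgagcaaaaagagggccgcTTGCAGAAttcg
Lcn2: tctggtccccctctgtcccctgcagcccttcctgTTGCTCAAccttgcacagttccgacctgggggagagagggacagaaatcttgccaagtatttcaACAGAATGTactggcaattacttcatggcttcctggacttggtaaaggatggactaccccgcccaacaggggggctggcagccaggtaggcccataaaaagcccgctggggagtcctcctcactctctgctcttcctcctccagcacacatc
Steap4: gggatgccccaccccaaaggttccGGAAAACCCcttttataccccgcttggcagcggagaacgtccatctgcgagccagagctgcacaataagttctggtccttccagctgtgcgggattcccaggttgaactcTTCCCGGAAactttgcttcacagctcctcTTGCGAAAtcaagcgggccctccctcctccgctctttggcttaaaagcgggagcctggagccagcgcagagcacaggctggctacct

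Each pattern is short and common: among 32851 mouse promoters of this length, 7.02% held the STAT pattern, 9.56% the C/EBP pattern, 4.93% the NF-κB pattern and 5.84% the glucocorticoid receptor pattern. The metal response cores TGCACNC and TGCGCNC were in 10.4% and 12.5% of them. No search pattern overlapped another within the printed stretches. A promoter entry was matched by symbol for 9 of the 10 genes, all but Hp. Both metallothionein promoters held TGCACNC, Mt1 at 1 position and Mt2 at 2, and Mt2 also held TGCGCNC. The NF-κB pattern was in 4 of 9 (Serpina3n, Steap4, Saa3 and Il6), the C/EBP pattern in 5 of 9 (Lcn2, Mt2, Steap4, Saa3 and Il6), the glucocorticoid receptor pattern in 3 of 9 (Serpina3n, Lcn2 and Mt1) and the STAT pattern in 2 of 9 (Steap4 and Socs3). A match is a run of letters in the reference and not a measured binding site, and the absence of one says only that these letters are not in this window.

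Il6, Osmr and Socs3, the ligand, receptor subunit and feedback inhibitor of the pathway, had the smallest fold changes of the 10 genes. Il6 (chr5:30013114-30019981, plus strand) encodes the cytokine interleukin-6. Il6 stood at 4.2, 5.64, 5.98 and 9.84 CPM in vehicle tumors 0, 1, 2 and 3, and at 6.52, 6.73, 10.3 and 6.56 CPM in SR59230A tumors 1, 2, 3 and 4. The groups overlapped, and each held 1 tumor, numbered 3 in both, near 10 CPM with the other tumors well below it. The group means were 6.41 ± 2.41 and 7.52 ± 1.84 CPM (SD, n = 4 each), a log2 fold change of 0.23 (SE 0.28). Without SR59230A tumor 3 the log2 fold change was 0.04.

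Osmr (chr15:6813577-6874969, minus strand) encodes the oncostatin M receptor subunit that pairs with gp130. Its level was 5.93, 4.96, 4.5 and 8.16 CPM in vehicle tumors 0 to 3 and 7.64, 4.69, 10.5 and 8.38 CPM in SR59230A tumors 1 to 4. SR59230A tumors 3 and 4 were the highest, yet SR59230A tumor 2 lay below 3 of the 4 vehicle tumors. The log2 fold change was 0.40 (SE 0.28). Socs3 (chr11:117966079-117970047, minus strand) was the most even of the 10 genes, at 12.3, 13.5, 16.6 and 15.7 CPM in vehicle and 12.9, 15.7, 14.5 and 16.1 CPM in SR59230A tumors. All 4 SR59230A tumors lay inside the vehicle range, and the log2 fold change was 0.02 (SE 0.14). The highest of the 8 tumors exceeded the lowest 1.35-fold for Socs3, against 2.45-fold for Il6 and 2.33-fold for Osmr.

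The shared signaling genes downstream of these ligands were abundant. Il6st, which encodes gp130, was at 85.8 to 117 CPM in vehicle and 106 to 110 CPM in SR59230A tumors (log2 fold change 0.08, SE 0.11), and Stat3 at 128 to 222 and 122 to 207 CPM (-0.29, SE 0.21). Il6ra, the ligand-binding subunit for interleukin-6, was near the low end at 1.24 to 2.68 and 1.96 to 2.63 CPM, and the ligand gene Osm at 4.49 to 5.4 and 3.44 to 5.63 CPM. Of 14 interleukin-6 family ligands and receptors beside the 10 genes, 11 were tested and edgeR and DESeq2 called 0 of them in either direction, with 1 (Lifr, the leukemia inhibitory factor receptor, log2 fold change 0.74, SE 0.24) at an unadjusted p under 0.05. All 17 genes of the JAK and STAT3 pathway and its feedback were tested, with 0 called by either tool, 0 at an unadjusted p under 0.05 and a median log2 fold change of -0.03. Of 18 STAT3 target genes, all tested, 0 were called by either tool and the median was 0.04, with 3 at an unadjusted p under 0.05, among them Cebpd, a C/EBP transcription factor (0.95, SE 0.34).

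Serpina3n showed the clearest difference of the 10 genes. It lies at chr12:104406729-104414329 (plus strand) and encodes a secreted serine protease inhibitor, a mouse counterpart of human α1-antichymotrypsin that is also known as a marker of reactive astrocytes. Serpina3n was at 7.03, 6.23, 9.69 and 6.59 CPM in vehicle tumors 0 to 3 and at 22, 10.4, 41.8 and 33.2 CPM in SR59230A tumors 1 to 4. The groups did not overlap, although SR59230A tumor 2 lay just above vehicle tumor 2. Means were 7.38 ± 1.57 and 26.9 ± 13.6 CPM (SD, n = 4 each), and the log2 fold change was 1.86 (SE 0.37).

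Per transcript length the groups also did not overlap, with Serpina3n at 3.44 to 8.05 TPM (a level scaled to transcript length and library) in vehicle and 9.1 to 25.6 TPM in SR59230A tumors. Each value rests on 172 to 966 reads, all on a single transcript of 2064 bases. Leaving out any 1 tumor gave log2 fold changes of 1.56 to 2.13. Without SR59230A tumors 1 and 2, whose skeletal muscle markers were high, the value was 2.34 (SE 0.21), larger than over all tumors. In vehicle 1 and 2 against SR59230A 1 and 2 it was 1.04, and in vehicle 0 and 3 against SR59230A 3 and 4 it was 2.45.

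Serpina3n belongs to a cluster of near-identical inhibitor genes, between which reads can be split wrongly. Of the 10 other Serpina3 genes, 4 passed the filter, all 4 had a log2 fold change above 0, and the median was 1.42. A gene with few reads in vehicle tumors, such as Serpina3m, can pass the filter through its SR59230A reads. Nothing is therefore read from this count or median. Serpina3m had 0 to 14 reads in vehicle and 27, 22, 115 and 111 reads in SR59230A tumors (log2 fold change 3.42, SE 0.98, DESeq2 adjusted p = 0.0254, edgeR adjusted p = 0.996). Serpina3c had 1 to 18 reads in vehicle and 10, 11, 61 and 76 in SR59230A tumors. Serpina3k had 0 or 1 read in each tumor except 117 and 18 reads in SR59230A tumors 3 and 4. Serpina3g, at 44 to 125 reads, did not follow this order (log2 fold change 0.37, SE 0.37), and Serpina3b had no read in any tumor. Serpina3f, Serpina3h and Serpina3i had 2 to 15, 0 to 8 and 7 to 24 reads, and the groups overlapped for each. All of these had fewer reads than Serpina3n in the same tumor, and Serpina3g came nearest, with 110 reads against 172 in vehicle tumor 3.

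Saa3, Lcn2 and Hp, the other secreted effectors, spread widely within both groups. Saa3 (chr7:46711998-46715700, minus strand) encodes the serum amyloid A made mainly outside the liver, by macrophages and fat. Saa3 was at 7.81, 3.18, 2.57 and 11.6 CPM in vehicle tumors and at 3.36, 4.16, 23.3 and 12 CPM in SR59230A tumors. SR59230A tumors 3 and 4 exceeded every vehicle tumor, the latter by little, while SR59230A tumors 1 and 2 lay within the vehicle range. The log2 fold change was 0.77 (SE 0.67), and 0.04 without SR59230A tumor 3.

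The Saa3 value also depended on which of its transcripts took the reads. The short coding transcript Saa3-201 (555 bases) held 34.8%, 37.7%, 10.4% and 18.9% of Saa3 reads in vehicle tumors and 15.2%, 54.3%, 72% and 66.9% in SR59230A tumors. Most other reads were assigned to the coding transcript Saa3-202 of 2200 bases. With counts corrected for mean transcript length the log2 fold change was 1.54 (SE 0.72). In TPM, Saa3 was at 4.61 to 9.95 in vehicle and at 5.37, 11.1, 50.7 and 22.5 in SR59230A tumors. The liver paralogs Saa1 and Saa2 had at most 12 reads in 6 tumors, and 49 and 54 reads in SR59230A tumor 3 and 23 and 22 in SR59230A tumor 4.

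Lcn2 (chr2:32384633-32388252, minus strand) encodes lipocalin 2, which withholds iron from bacteria by binding their siderophores. Lcn2 was at 0.773, 2.07, 4.47 and 1.3 CPM in vehicle tumors and 1.17, 0.764, 15 and 4.98 CPM in SR59230A tumors. SR59230A tumors 3 and 4 were the highest of the 8, and SR59230A tumor 2 was the lowest. The log2 fold change was 1.33 (SE 0.90), and 0.08 (SE 0.76) without SR59230A tumor 3. Slc22a17, which encodes a lipocalin 2 receptor, was at 14.3 to 24.2 CPM in vehicle and 16.7 to 38.2 CPM in SR59230A tumors, highest in SR59230A tumor 3.

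Hp (chr8:109575128-109579172, minus strand) encodes haptoglobin, which binds free hemoglobin for clearance through the macrophage receptor Cd163. Hp was at 10.4, 21.5, 44.5 and 3.56 CPM in vehicle tumors and 0.955, 2.72, 66.9 and 39.8 CPM in SR59230A tumors. It had the widest spread of the 10 genes, 70.1-fold from SR59230A tumor 1 to SR59230A tumor 3. SR59230A tumors 1 and 2 lay below every vehicle tumor, and the vehicle range lay inside that of the SR59230A tumors. The log2 fold change was 0.45 (SE 1.13), and it was -0.47 without SR59230A tumor 3 and 1.41 (SE 0.79) without SR59230A tumors 1 and 2. Cd163 was at 66.4 to 165 CPM in vehicle and 54.8 to 177 CPM in SR59230A tumors.

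Mt1 and Mt2 encode metallothioneins, small cysteine-rich proteins that bind zinc and copper, and they are neighbors on chromosome 8 (chr8:94179082-94180327 and chr8:94172664-94173568, both plus strand). Both were higher in SR59230A tumors 3 and 4 than in any other tumor. Mt1 was at 3.35, 2.54, 3.59 and 5.63 CPM in vehicle tumors and 6.22, 3.52, 22.3 and 15.9 CPM in SR59230A tumors. Mt2 was at 3.24, 1.33, 2.51 and 3.18 CPM in vehicle tumors and 5.4, 2, 16.4 and 13.1 CPM in SR59230A tumors. For both genes 3 of 4 SR59230A tumors lay above every vehicle tumor, and SR59230A tumor 2 lay within the vehicle range. The log2 fold changes were 1.66 (SE 0.54) for Mt1 and 1.85 (SE 0.59) for Mt2.

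Leaving out any 1 tumor gave 1.17 to 1.97 for Mt1 and 1.41 to 2.19 for Mt2. Without SR59230A tumors 1 and 2 the values were 2.34 and 2.53. In vehicle 1 and 2 against SR59230A 1 and 2 they were 0.67 (SE 0.37) and 0.96 (SE 0.56). The brain and squamous forms were near absent, with 1 to 14 reads for Mt3 and 0 or 1 for Mt4. Of 10 further genes of metallothioneins and the zinc response, 7 were tested, 0 were called by either tool, 0 had an unadjusted p under 0.05 and the median log2 fold change was 0.12. The zinc importer Slc39a14 was at 25.9 to 31.2 CPM in vehicle and 29.8 to 34.4 CPM in SR59230A tumors, a log2 fold change of 0.17 (SE 0.10).

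Steap4 (chr5:7960457-7982213, plus strand) encodes a membrane metalloreductase that reduces iron and copper. Steap4 was at 1.22, 2.34, 4.92 and 2.03 CPM in vehicle tumors and 2.46, 0.764, 10.5 and 9.07 CPM in SR59230A tumors. SR59230A tumors 3 and 4 were the highest and SR59230A tumor 2 the lowest, the same order of extremes as for Lcn2. The log2 fold change was 1.10 (SE 0.74), with 0.63 to 1.59 when any 1 tumor was left out. In vehicle 1 and 2 against SR59230A 1 and 2 it was -1.17. The family members Steap1, Steap2 and Steap3 had 7 to 43, 25 to 69 and 257 to 781 reads, and none of these had its most reads in SR59230A tumors 3 or 4. Of 10 further genes of the Steap family, iron handling and the receptors for lipocalin 2 and haptoglobin, 8 were tested, 0 were called by either tool, 2 had an unadjusted p under 0.05 and the median log2 fold change was 0.06.

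**Figure D2:**
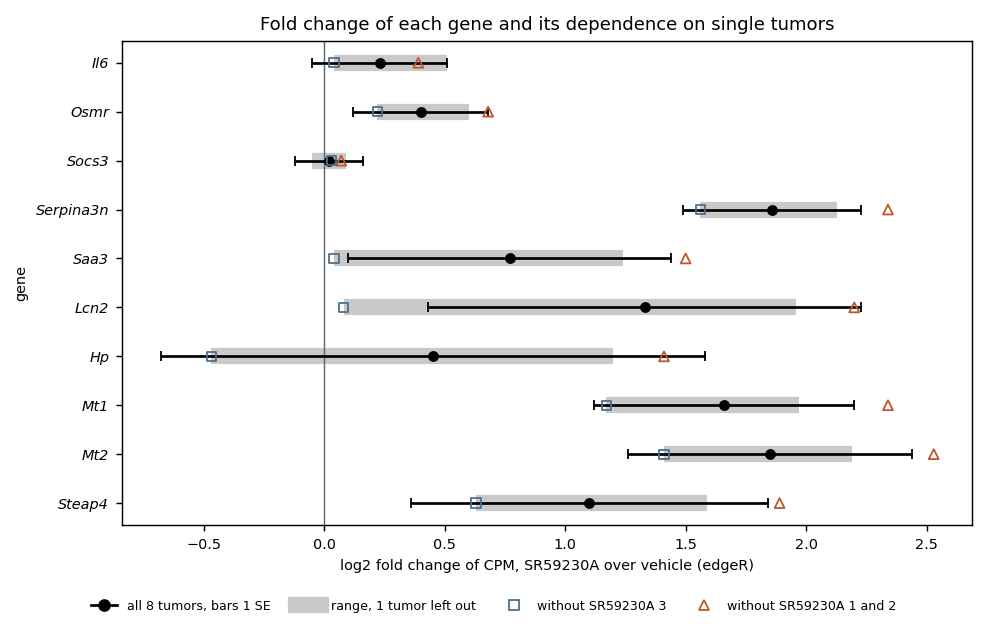
Log2 fold change of SR59230A over vehicle (horizontal axis) for the 10 genes; black points are estimates over 8 tumors with bars of 1 SE, gray bands the range when any 1 tumor was left out, squares the values without SR59230A tumor 3 and triangles those without SR59230A tumors 1 and 2. Serpina3n, Mt1 and Mt2 stay above 1 in the values drawn, while Lcn2 and Saa3 come close to 0 and Hp falls below 0 without SR59230A tumor 3.

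The 10 genes fell into patterns over the 8 tumors that the group means do not show. Mt1 and Mt2 followed Serpina3n most closely, both with Pearson's r of 0.91 between log2 CPM values (Spearman's rho 0.83 and 0.79). Steap4, Osmr and Lcn2 were next at r of 0.73, 0.69 and 0.67, followed by Saa3 at 0.50, Il6 at 0.42, Hp at 0.28 and Socs3 at 0.11. Without SR59230A tumors 3 and 4, the 2 farthest from the median Serpina3n level, r was 0.59 for Mt1 and 0.66 for Mt2, but 0.12 for Steap4, 0.24 for Osmr, -0.09 for Lcn2, -0.45 for Saa3 and -0.61 for Hp. These correlations describe 8 tumors that share treatment, library preparation and depth differences.

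Lcn2, Steap4 and Hp shared another pattern, in which vehicle tumor 2 was high beside SR59230A tumors 3 and 4, and SR59230A tumor 2 was low. Over the 8 tumors r was 0.94 between Lcn2 and Steap4, 0.81 between Lcn2 and Hp, 0.72 between Steap4 and Hp and 0.97 between Mt1 and Mt2. Steap4 was about as close to the metallothioneins, at 0.78 with Mt1 and 0.76 with Mt2. Osmr and Saa3, both higher in vehicle tumors 0 and 3 than in 1 and 2, had an r of 0.83. Outside the list, protein-coding genes among the most like Serpina3n of 11420 were Fam126b (r = 0.957), Arl5b (0.931), Eif4g2 (0.928), Bivm (0.925) and Tor1aip1 (0.924). Their differences were small, with log2 fold changes of 0.12 to 0.39.

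**Figure D3:**
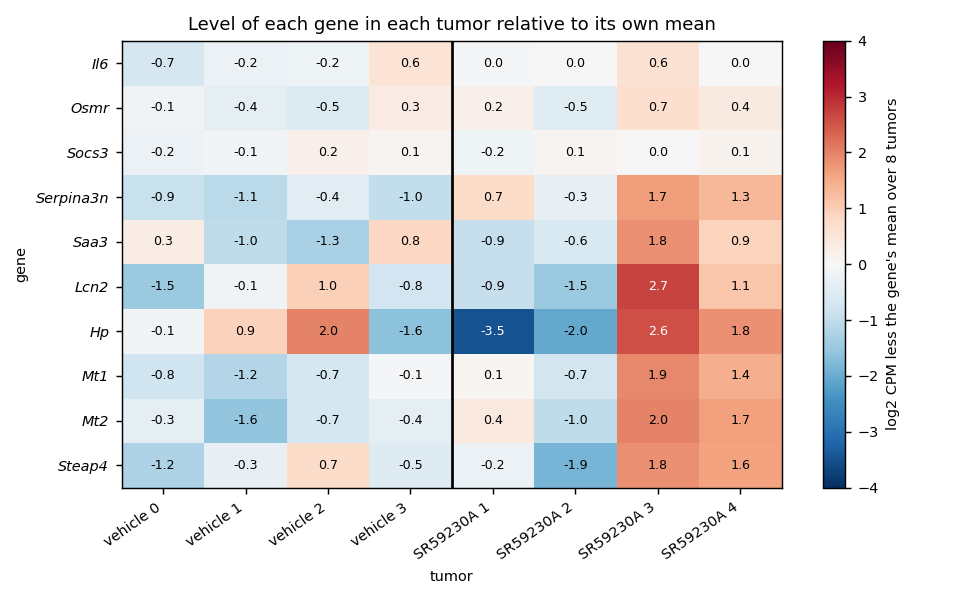
Level of each gene (rows) in each tumor (columns) as log2 CPM less the gene's mean over 8 tumors, red above and blue below the mean. The columns of SR59230A tumors 3 and 4 are red for most genes, vehicle tumor 2 is red for Hp, Lcn2 and Steap4 but blue for Serpina3n, Mt1 and Mt2, and the Socs3 row is pale throughout.

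Markers of other cell types were set beside these patterns. The sum of 10 adipocyte markers (Fabp4, Cfd, Adipoq and others) was 24.9, 41.9, 65.1 and 33.8 CPM in vehicle tumors and 15.8, 15.2, 250 and 102 CPM in SR59230A tumors. Of these markers 8 were tested, and all 8 had a log2 fold change above 0. Nothing is read from that count, since a marker low in vehicle tumors can pass the filter through its SR59230A reads. Lcn2, Steap4 and Hp followed the adipocyte sum, though not in the same order of tumors throughout. Their r with it was 0.96, 0.90 and 0.88 between log2 values over 8 tumors, and 0.92, 0.87 and 0.89 without SR59230A tumor 3. For Serpina3n, Mt1 and Mt2, r with the adipocyte sum was 0.58, 0.73 and 0.66, and 0.24, 0.45 and 0.38 without SR59230A tumor 3. SR59230A tumor 1 had the next to lowest adipocyte sum of the 8 tumors and 22 CPM of Serpina3n, above every vehicle tumor. Much of the adipocyte sum was 1 gene, Fabp4, at 17 to 35.9 CPM in vehicle and 8.87 to 109 CPM in SR59230A tumors. The part of fat cells in any of these values was not tested.

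**Figure D4:**
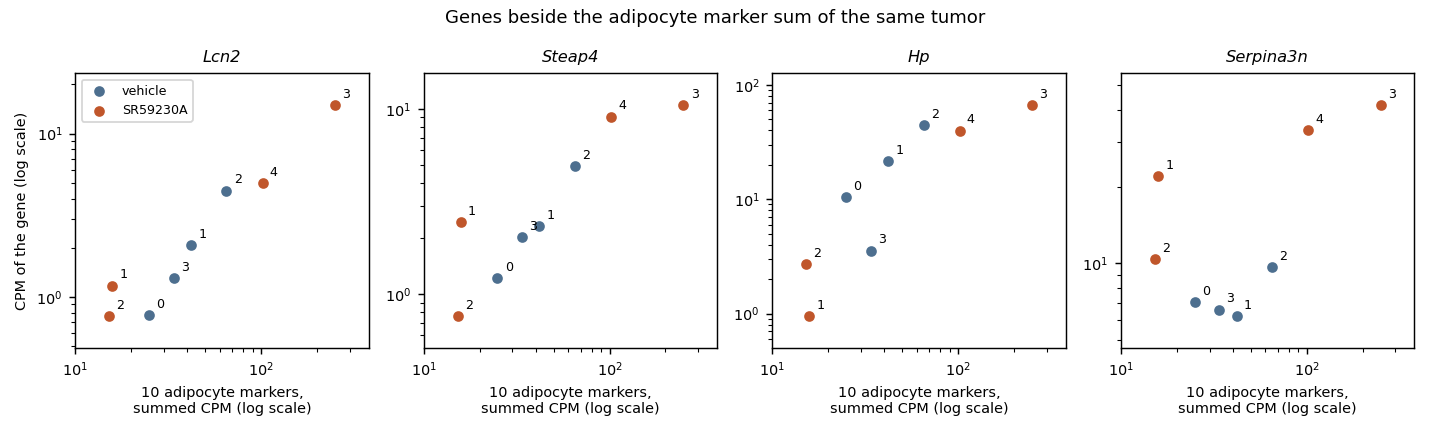
CPM of Lcn2, Steap4, Hp and Serpina3n (vertical axes, log scale) against the summed CPM of 10 adipocyte markers in the same tumor (horizontal axes, log scale); points are tumors with their numbers. Lcn2, Steap4 and Hp climb with the marker sum in both groups, whereas SR59230A tumors 1 and 2 lie above the vehicle tumors for Serpina3n at the lowest marker sums.

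Hepatocyte markers were low everywhere, with a sum of 7.5 to 9.54 CPM in vehicle and 2.65, 9.45, 17.7 and 5.84 CPM in SR59230A tumors. Albumin (Alb), the defining liver transcript, had 0 to 7 reads per tumor. Of the 10 markers 2 were tested, and they differed in direction. Ahsg was at 6.44 to 8.69 CPM in vehicle and 1.69 to 8.51 CPM in SR59230A tumors (log2 fold change -0.46, SE 0.41). Cyp2e1 was at 0.479 to 0.724 CPM in vehicle and at 0.818, 0.637, 10.8 and 0.996 CPM in SR59230A tumors 1 to 4 (2.37, SE 0.91). Neutrophil markers summed to 53.3 to 74.9 CPM in vehicle and 48.2 to 113 CPM in SR59230A tumors, highest in SR59230A tumor 3. Most of this sum was 1 gene, Cxcr2, at 49.9 to 71.6 and 43.5 to 86.2 CPM (log2 fold change 0.21, SE 0.21). Of the 10 neutrophil markers only 5 passed the filter, and all 5 had a log2 fold change above 0, as had 49.6% of all tested genes. Markers with few reads in vehicle tumors, such as S100a8, can pass the filter through their SR59230A reads. Nothing is therefore read from this count. Macrophage markers summed to 276 to 613 CPM in vehicle and 405 to 605 CPM in SR59230A tumors, and Il6 followed them most closely of the 10 genes (r = 0.96, and 0.94 without SR59230A tumor 3). Vehicle tumor 3 and SR59230A tumor 3 had the highest macrophage sums and also the highest Il6. The part of neutrophils and macrophages in these values was not tested. Fibroblast markers summed to 1144 to 1880 CPM in vehicle and 1533 to 1928 CPM in SR59230A tumors, endothelial markers to 192 to 226 and 163 to 216 CPM, T and NK cell markers to 1.75 to 4.98 and 1.61 to 2.36 CPM, and keratinocyte markers to at most 0.73 CPM.

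Per length, the 10 genes were modestly expressed. Median levels over the 8 tumors were 21.4 TPM for Mt1, 19.7 for Hp, 16.9 for Mt2, 13.5 for Il6, 9.61 for Saa3, 9.59 for Socs3, 8.58 for Serpina3n, 3.48 for Lcn2, 1.72 for Osmr and 1.43 TPM for Steap4. The ranges of all neighbors in this order overlapped. Hp varied most, from 1.15 to 67 TPM, and Socs3 least, from 7.49 to 14 TPM. In the SR59230A tumors Mt1 and Mt2 reached 85.8 and 84.2 TPM in tumor 3, the highest levels of the 10 genes in any tumor.

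**Figure D5:**
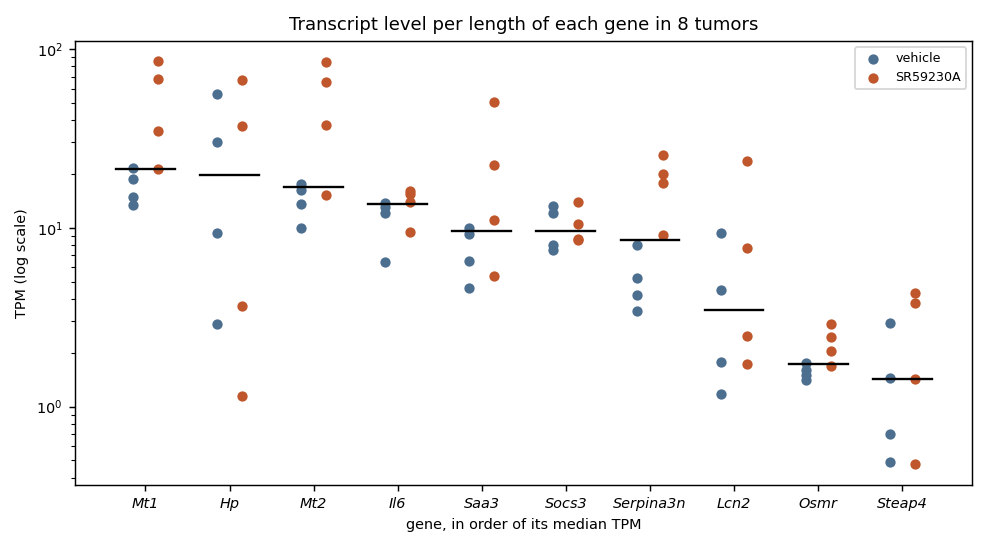
TPM of each gene (vertical axis, log scale) in the 8 tumors, genes ordered by the median over tumors (black lines). Mt1, Hp and Mt2 have the highest medians, Hp spans the widest range, and neighboring genes overlap throughout.

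Other genes of the acute-phase response were taken from lists of known function, with 149 genes in 10 lists, of which 113 were tested. By edgeR 0 of these were called, and 13 (11.5%) had an unadjusted p under 0.05, against 4.64% of all tested genes. The lists were chosen with earlier results of these data known, and a gene such as Serpina3m can pass the filter through its SR59230A reads. Nothing is therefore read from this share. DESeq2 called 3, where it called 36 of 18531 genes (0.194%) in all. The 3 were higher in SR59230A tumors: Serpina3m (above), C3 and Hsd11b1. C3, the central complement component, was at 7.4, 4.04, 7.82 and 13.9 CPM in vehicle and 14.5, 16.8, 36.8 and 29.6 CPM in SR59230A tumors (log2 fold change 1.56, SE 0.40, DESeq2 adjusted p = 0.0225). Hsd11b1, whose enzyme regenerates active glucocorticoid, was at 0.7, 0.512, 0.845 and 0.996 CPM in vehicle and 1.42, 1.74, 5.79 and 2.95 CPM in SR59230A tumors (1.96, SE 0.48, DESeq2 adjusted p = 0.0323). As for Serpina3n, the groups did not overlap for C3 and Hsd11b1, and SR59230A tumor 3 was the highest.

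Of 24 liver-type acute-phase genes 7 were tested, and Hamp, the iron hormone hepcidin, had no read. Of the 7, 6 had a log2 fold change above 0 (49.6% of all tested genes) and 3 an unadjusted p under 0.05 (4.64%). Their median was 0.62. Genes with few reads in vehicle tumors can pass the filter through their SR59230A reads, so nothing is read from these counts or this median. Among 23 genes of the response to interleukin-1, tumor necrosis factor and NF-κB, 21 were tested, 0 were called by either tool, 0 had an unadjusted p under 0.05 and the median was 0.09. Of 14 glucocorticoid response genes 13 were tested, with a median of 0.18, and the classic targets Tsc22d3 and Fkbp5 were at 0.18 (SE 0.13) and 0.16 (SE 0.11). In this list edgeR called 0 genes and DESeq2 called 1, Hsd11b1. An unadjusted p under 0.05 was found for 2 genes, Hsd11b1 (higher) and Angptl4 (lower). Of 10 genes of reactive glia and nerve injury, lists in which Serpina3n itself is often counted, 8 were tested, 0 were called by either tool, 0 had an unadjusted p under 0.05 and the median was 0.01.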

How the data were processed

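Total RNA libraries (TruSeq Stranded Total RNA) from 8 tumors were quantified by the authors, who excluded RNA with an integrity number under 6. The authors ran Salmon (1.5.1 by the Methods; no version in the submitters' notes), and the deposited file of each tumor holds, per transcript, estimated counts that are not scaled, TPM (scaled to transcript length and library) and effective lengths. GRCm38 is the build in the Methods and GRCm39 that in the notes; 99.5% of 115636 transcripts, and all 32 of the 10 genes, had the length given in GENCODE annotation of GRCm38. A further deposited table, by gene symbol, gives a signal that the authors scaled between libraries with DESeq2, and it holds 6 of the 10 genes.

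Estimated counts and TPM were summed over transcripts (115685 of 116747 matched by identifier, 99.1%) to 35458 genes, and the counts were rounded to whole numbers. The quasi-likelihood test of edgeR 4.0.16 in R 4.3.3, after edgeR's default filter and TMM scaling, compared 4 SR59230A with 4 vehicle tumors, with treatment as the only term and Benjamini-Hochberg adjustment. Calls required a log2 fold change of 0.5 or more in either direction at an adjusted p below 0.05. CPM use TMM-scaled totals, and correlations use log2 CPM with a prior count of 2. Within groups, log2 CPM of tumors correlated at 0.932 to 0.989 (vehicle) and 0.948 to 0.971 (SR59230A). The edgeR test was also run on simulated counts, drawn independently for each gene and tumor. The simulation held no differences shared by many genes of a tumor, such as those of muscle or adipocyte markers, and no result here rests on it. Alternatives used DESeq2 1.42.0, limma 3.58.1, other scaling, filters and pseudocounts, the replicate number as a block, and left out tumors.

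The 10 genes, the lists and the alternatives were chosen with earlier results of these data known. Beside the 10 genes, the text names from each list the tested genes with the 2 smallest unadjusted p-values or the 2 highest mean TPM, marker genes by TPM, close paralogs, and the 6 genes of at least 100 mean reads most like Serpina3n, of which 1 is not reported here. Il6ra, Osm, Slc22a17, Cd163, Adipoq and Alb were named after their values were seen, for their known roles. Promoter sequences came from RefSeq (GRCm38.p6). Estimated counts carry counting error and error in assigning reads between paralogs, and no interval was computed for it.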

Additional observations from a re-analysis of the deposited data

Results flagged for a closer look

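In SR59230A tumor 3, Il6 stood at 10.3 CPM, while the other 3 SR59230A tumors lay between 6.52 and 6.73 CPM. The gap to the nearest tumor was 0.944 of the group's whole range, above Dixon's critical value for a group of 4. Of 20 groups tested, 10 genes in each of 2 treatments, 1 passed this limit, and chance alone passes about 1 in 20.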

How the results depend on the processing

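Counts of called genes were 0 by edgeR over all 8 tumors and also 0 with other scaling factors, filters, the length correction, limma and the replicate block. DESeq2 called 36 genes, 1 of them among the 10 (Serpina3n) and 3 in the pathway lists. With 1 tumor left out, edgeR called 0 to 1 gene, the 1 without SR59230A tumor 4. In vehicle 0 and 3 against SR59230A 3 and 4, edgeR called 5 genes, 1 of the 10 among them (Serpina3n), and the median log2 fold change of the 10 was 2.14. That median was 0.93 over all tumors and 0.15 to 1.40 with 1 tumor left out, lowest without SR59230A tumor 3 and highest without vehicle tumor 2. It was 0.29 in vehicle 1 and 2 against SR59230A 1 and 2, 0.75 without vehicle 0, vehicle 3 and SR59230A 4, and 1.69 without SR59230A 1 and 2. Of 216 values of single genes under 22 alternative fits, 19 were below 0 (Socs3 9, Hp 6, Lcn2 2, Steap4 2). In vehicle 1 and 2 against SR59230A 1 and 2, Lcn2 was at -1.74 and Hp at -4.13. By CPM in place of TPM, 0 of 10 genes kept their rank of level. The number of genes with r of at least 0.5 with Serpina3n was 6, and 4 to 7 when 1 tumor was left out. Unless named above, the cause of these changes was not tested.

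With the replicate number as a block, edgeR called 0 genes, and the median was 0.25, with Serpina3n at 1.54, Mt1 at 1.10, Hp at -2.33 and Lcn2 at -0.15. Vehicle tumor 0 and SR59230A tumor 4 have no partner of the same number and add nothing to that fit. The deviations of same-numbered tumors from their group means correlated at 0.0104, 0.626 and 0.534 for numbers 1, 2 and 3. Vehicle tumors 2 and 3 were closest to the SR59230A tumor of their own number, and vehicle tumor 1 to SR59230A tumor 2. The numbers were not taken as pairs in the main fit, and whether same-numbered tumors share a batch was not tested. Low depth limits the genes at under 100 reads: Mt2 in 5 tumors, all vehicle tumors among them, Lcn2 and Steap4 in 4 each, Hp in 2, and Mt1 and Saa3 in 1 each.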

Other observations

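Genes of iron handling outside the 10 had fold changes in both directions, and neither edgeR nor DESeq2 called them. Tfrc, which encodes the transferrin receptor that brings iron into cells, was at 128 to 368 CPM in vehicle and 237 to 628 CPM in SR59230A tumors, a log2 fold change of 1.35 (SE 0.41, edgeR adjusted p = 0.996). Slc40a1, the iron exporter ferroportin, was at 12.6 to 21.5 CPM in vehicle and 7.79 to 15.5 CPM in SR59230A tumors, a log2 fold change of -0.73 (SE 0.24, edgeR adjusted p = 0.996). Hmox1, the heme-degrading enzyme, was at 72.3 to 114 and 41.1 to 127 CPM. The groups overlapped for all 3 genes.

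C4b, a complement component that acts upstream of C3, was at 5.67 to 10 CPM in vehicle and 8.38 to 27.1 CPM in SR59230A tumors (log2 fold change 1.14, SE 0.34, DESeq2 adjusted p = 0.143). The neutrophil calprotectin gene S100a8 was at 0.295 to 0.881 CPM in vehicle tumors and at 0.955, 0.531, 7.79 and 1.44 CPM in SR59230A tumors 1 to 4, highest in SR59230A tumor 3 as for most of the 10 genes. Angptl4, a glucocorticoid and lipid responsive secreted factor, had the opposite direction, at 5.85 to 8.2 CPM in vehicle and 1.7 to 6.03 CPM in SR59230A tumors (log2 fold change -0.93, SE 0.37, DESeq2 adjusted p = 0.549).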
